A study of Mus musculus with 12 samples.

Results

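Mouse embryonic stem (ES) cells without a working Pphln1 gene, which encodes periphilin, were compared with wild-type ES cells over all genes. The 3 Pphln1-null libraries (Pph) and the 3 wild-type libraries (WT) were taken by their genotype labels and made up 6 of the 12 libraries of the study. The other libraries came from cells null for Mphosph8 (MP8) or Tasor (Tas), again with 3 libraries each. All groups were labelled as ES cells of the mouse strain C57BL/6, with no treatment named, and RNA was sequenced from total RNA. The labels describe neither the null alleles nor the clones or cultures behind the 3 libraries of each genotype. The p-values therefore measure only the spread between these libraries, which may be technical, and a property of 1 clone cannot be told apart from an effect of the genotype.

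The human silencing hub (HUSH) is a chromatin complex of TASOR, MPP8 (the product of Mphosph8) and periphilin. Work in human and mouse cells has shown that it binds transcribed retroelements, retrocopies and other genes with few introns, and that it acts with the histone H3 lysine 9 methyltransferase SETDB1 and the ATPase MORC2 to keep them silent. Periphilin is the subunit that binds RNA and TASOR. ES cells are known for a network of transcription factors around OCT4, SOX2 and NANOG that holds them in a pluripotent state.

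Counts per gene were scaled to CPM (counts for every 1000000 counts of the library), and 16840 of the 57180 listed genes had enough counts to be tested. A gene was called where the Benjamini-Hochberg adjusted p of edgeR's quasi-likelihood test, fitted over all tested genes, was under 0.05. Of the tested genes, 56.3% were called, with 30.6% higher and 25.7% lower in Pph, and these shares are the background for every count of list members. The lists were chosen with earlier results of these data known, so that a share away from the background may partly reflect that choice. Called changes of 2-fold or more made up 8.91% of tested genes upward and 2.24% downward. The Pph and WT libraries did not overlap in CPM for 60.3% of tested genes. The median log2 fold change of all tested genes was 0.04. The direction of small changes depended on the scale. Of the called genes, 54.3% were higher by counts, whereas limma on log2 of the deposited TPM, which divides counts by transcript length, called 5864 genes higher and 1875 lower, so that 75.8% of its calls were higher, and it moved the median of all genes to 0.17.

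Library totals ranged from 17996836 estimated counts in Pph to 21962079 in WT, with 22673 to 23348 genes detected per library, and no library stood apart from its group. Within the Pph and WT groups, the chi-square per degree of freedom between libraries was 2.25 to 6.35, against 33.7 or more between Pph and WT libraries. The comparison also held 2 broad shifts. Short genes were lower and long genes higher in Pph, and chromosome 16 was higher as a whole. Both are described below, and some list counts are also given with the length trend removed.

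Pphln1 itself was measured at 67, 66.7 and 71.9 CPM in the WT libraries and 19.8, 23.1 and 20.9 CPM in the Pph libraries. The groups did not overlap, and the transcript was 3.23-fold lower in Pph (log2 fold change -1.69 ± 0.05, adjusted p = 1.54e-21; here and below, the value after ± is the standard error of the edgeR fit unless SD is named). Counts from Pphln1 were thus still present in every Pph library, and the levels in the other null groups were 85.7 ± 3.29 CPM (SD, n = 3) in MP8 and 74.8 ± 1.2 CPM in Tas. Among 21 HUSH subunits, partners and related silencers, 20 were tested, 7 rose and 9 fell. With the length trend removed, 4 rose and 11 fell, and limma on TPM called 11 higher and 4 lower. Tasor2, a relative of Tasor, was among those that rose (log2 fold change 0.39 ± 0.04). Trim28, the corepressor that recruits SETDB1 to KRAB zinc finger proteins, was at 1781, 1748 and 1779 CPM in the WT libraries and 1410, 1518 and 1439 CPM in the Pph libraries and fell by a small margin (log2 fold change -0.28 ± 0.03, adjusted p = 1.49e-09). Zcchc8 and Mtrex, which encode parts of the nuclear exosome targeting complex known to work beside HUSH, changed by -0.27 ± 0.04 and -0.14 ± 0.03, both called lower. Setdb2 and Rbm7, which were not called, had log2 fold changes of -0.18 ± 0.09 and -0.02 ± 0.05.

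The ES cell label fitted the marker genes in both groups. The summed level of 16 core pluripotency genes was 5770 to 6090 CPM in WT and 4880 to 4970 CPM in Pph, and none of the 16 was at or under 3 counts in Pph. In bulk RNA, fewer cells of a type and less RNA per cell cannot be told apart. Of these 16 genes, 11 fell, 3 rose and 2 were not called. Their median was -0.28, and no change reached 2-fold. Nanog, a central pluripotency factor, was at 166, 166 and 167 CPM in the WT libraries and 99.2, 98.5 and 98.3 CPM in the Pph libraries. The Pph libraries lay well below the WT libraries and close together (log2 fold change -0.75 ± 0.04, adjusted p = 8.05e-17). Pou5f1, which encodes OCT4, was at 932, 918 and 987 CPM in the WT libraries and 701, 735 and 703 CPM in the Pph libraries and fell less (log2 fold change -0.41 ± 0.03, adjusted p = 9.49e-13). Sox2 fell by a similar margin (-0.32 ± 0.03), while Lin28b and Dppa4 rose slightly (0.24 ± 0.05 and 0.14 ± 0.03). With the length trend removed, Lin28b was not called (adjusted p = 0.0522), and 1 core gene rose and 12 fell. Dppa4 and the third gene called higher, Dppa2 (0.09 ± 0.04), lie on chromosome 16, which had a median of 0.20. The call of Dppa2 was at the threshold (adjusted p = 0.0499) and was lost with DESeq2 (adjusted p = 0.197) and on leaving out Pph replicate 1 or 2 or WT replicate 1 or 2 (0.06 to 0.08). Without chromosome 16, 1 of 14 tested core genes rose and 11 fell.

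Naive pluripotency genes, which mark the state of the preimplantation epiblast, fell further. Of 30 members, all tested, 24 fell, 8 of them by 2-fold or more, and 3 rose, with a median of -0.48. The medians of this list against WT were -0.56 in MP8 and -0.16 in Tas. Klf4, a transcription factor downstream of LIF signalling, was at 33.3, 36.1 and 36.2 CPM in the WT libraries and 7.67, 8.4 and 5.68 CPM in the Pph libraries. Every Pph library was below every WT library, and the mean was 4.85-fold lower (log2 fold change -2.28 ± 0.09, adjusted p = 8.83e-19). Tbx3, another factor of this network, went from 8.13 to 2.03 CPM in the mean (-2.0 ± 0.17), and the naive marker Dppa3 from 32.8 to 10.9 CPM (-1.58 ± 0.07). Tet2, which oxidises methylated cytosine, was at 80.8, 87.3 and 71.6 CPM in the WT libraries and 41.3, 38.4 and 39.9 CPM in the Pph libraries (log2 fold change -1.0 ± 0.06, adjusted p = 6.91e-14). The receptor genes Lifr and Il6st and the signal transducer Stat3, through which LIF acts, fell by less, with log2 fold changes of -0.21 ± 0.04, -0.27 ± 0.04 and -0.28 ± 0.04. None of these was called by limma on TPM (adjusted p = 0.208, 0.654 and 0.0645). Gbx2 and Klf2 were not called (0.01 ± 0.05 and -0.09 ± 0.04), and Id1, a target of BMP signalling, rose (0.92 ± 0.05).

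Genes of the formative and primed states, which follow the naive state in development, fell as well. Of 23 members, 22 were tested, 15 fell and 4 rose, with a median of -0.52. Otx2, a transcription factor of the postimplantation epiblast, was at 16, 16.6 and 16.5 CPM in the WT libraries and 1.69, 1.35 and 1.62 CPM in the Pph libraries. The groups were far apart, with a mean 10.5-fold lower in Pph (log2 fold change -3.40 ± 0.12, adjusted p = 4.38e-20). Lef1, a nuclear effector of Wnt signalling, was at 11.9, 12.2 and 11.6 CPM in the WT libraries and 1.47, 2.05 and 1.62 CPM in the Pph libraries (log2 fold change -2.78 ± 0.14, adjusted p = 6.06e-17). Foxd3 and Tcf15 changed by -1.32 ± 0.08 and -1.06 ± 0.17, and Fgf5, the classical marker of primed cells, was low throughout and fell from 1.09 to 0.208 CPM (-2.37 ± 0.39). Sox4 and the N-cadherin gene Cdh2 rose (0.73 ± 0.04 and 0.49 ± 0.08).

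**Figure D1:**
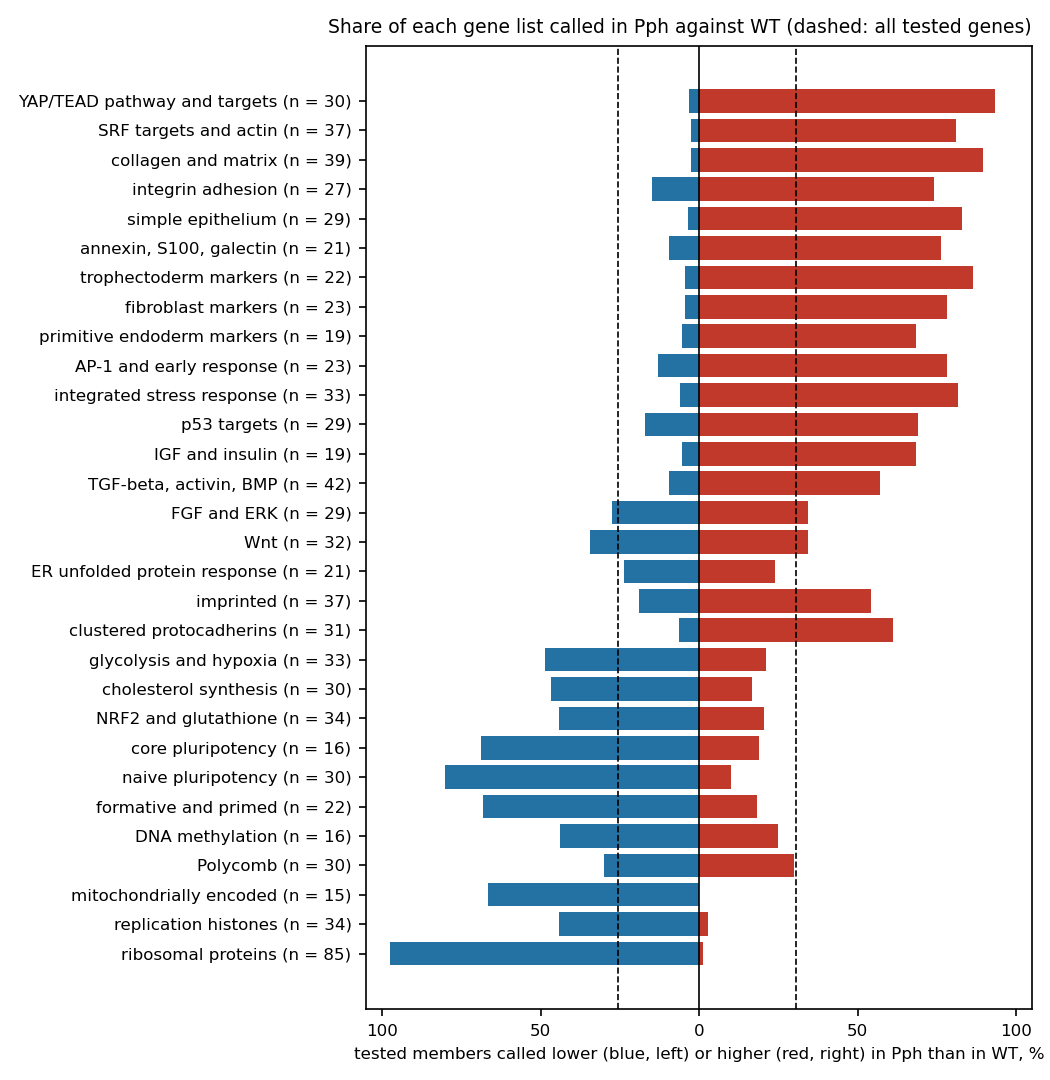
Share of the tested members of 30 gene lists called lower (left) and higher (right) in Pph against WT, in percent of tested members, with dashed lines at the background of all tested genes, 25.7% and 30.6%. Members of the YAP/TEAD, matrix, trophectoderm and epithelial lists were mostly called higher, and those of the ribosomal protein, naive and core pluripotency lists mostly lower. The lists were chosen with earlier results of these data known.

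Genes of cell shape, adhesion and mechanical signalling rose in large numbers. YAP and TAZ are coactivators that bind DNA through TEAD factors, and myocardin-related factors bind the same way through SRF, and both are known to respond to the actin cytoskeleton. To show the letters around the start sites of some of the genes described next, 300-base promoter windows (250 bases before the start site to 50 after, RefSeq, GRCm38.p6) are printed 5′ to 3′ on the gene's own strand. The first 4 belong to genes of the YAP/TEAD list that hold the core TEAD motif GGAATG, searched on both strands, and the last 3 to genes of the SRF list that hold a CArG box, the SRF motif, with the matches in capitals.
Ankrd1, chr19:36119795-36120094, minus strand, with matches at -210 and -123: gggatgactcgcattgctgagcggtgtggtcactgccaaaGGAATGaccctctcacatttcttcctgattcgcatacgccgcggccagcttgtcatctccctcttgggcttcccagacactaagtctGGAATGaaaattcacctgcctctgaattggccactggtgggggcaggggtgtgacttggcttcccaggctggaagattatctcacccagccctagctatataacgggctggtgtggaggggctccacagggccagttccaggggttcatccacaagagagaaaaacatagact
Axl, chr7:25788684-25788983, minus strand, with a match at -233: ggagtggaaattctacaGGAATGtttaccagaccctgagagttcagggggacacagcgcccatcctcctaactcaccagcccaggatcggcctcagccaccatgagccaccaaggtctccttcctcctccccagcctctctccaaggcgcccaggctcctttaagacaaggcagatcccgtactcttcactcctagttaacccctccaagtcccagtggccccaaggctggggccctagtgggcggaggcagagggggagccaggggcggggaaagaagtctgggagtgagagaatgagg
Lats2, chr14:57746074-57746373, minus strand, with a match at 5: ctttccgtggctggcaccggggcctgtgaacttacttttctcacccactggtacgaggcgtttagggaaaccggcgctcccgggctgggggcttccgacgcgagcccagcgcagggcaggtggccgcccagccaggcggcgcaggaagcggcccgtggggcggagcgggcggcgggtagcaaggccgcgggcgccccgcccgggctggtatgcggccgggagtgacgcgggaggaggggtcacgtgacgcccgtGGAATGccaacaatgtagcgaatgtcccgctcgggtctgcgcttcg
Ccn1, chr3:145649936-145650235, minus strand, with a match to the other strand (CATTCC) at -103: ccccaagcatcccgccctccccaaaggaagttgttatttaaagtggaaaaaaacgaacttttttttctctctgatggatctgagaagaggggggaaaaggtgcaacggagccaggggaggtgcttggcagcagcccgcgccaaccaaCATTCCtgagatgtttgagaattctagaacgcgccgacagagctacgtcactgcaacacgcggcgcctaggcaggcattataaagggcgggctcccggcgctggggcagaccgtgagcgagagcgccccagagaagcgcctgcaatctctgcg
Acta1, chr8:123894726-123895025, minus strand, with a match at -73: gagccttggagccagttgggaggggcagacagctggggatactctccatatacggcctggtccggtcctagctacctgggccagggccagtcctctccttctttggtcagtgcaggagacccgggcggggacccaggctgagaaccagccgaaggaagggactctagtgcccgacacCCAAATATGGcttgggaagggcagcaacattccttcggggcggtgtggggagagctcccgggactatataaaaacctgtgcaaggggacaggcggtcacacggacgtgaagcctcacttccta
Fhl2, chr1:43196712-43197011, minus strand, with a match at -96: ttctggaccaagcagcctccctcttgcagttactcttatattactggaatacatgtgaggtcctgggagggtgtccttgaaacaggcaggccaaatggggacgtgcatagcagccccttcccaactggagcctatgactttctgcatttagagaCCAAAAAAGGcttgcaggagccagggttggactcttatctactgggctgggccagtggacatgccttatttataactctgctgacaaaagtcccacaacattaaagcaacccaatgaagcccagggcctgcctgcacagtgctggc
Myl9, chr2:156775214-156775513, plus strand, with a match at -161: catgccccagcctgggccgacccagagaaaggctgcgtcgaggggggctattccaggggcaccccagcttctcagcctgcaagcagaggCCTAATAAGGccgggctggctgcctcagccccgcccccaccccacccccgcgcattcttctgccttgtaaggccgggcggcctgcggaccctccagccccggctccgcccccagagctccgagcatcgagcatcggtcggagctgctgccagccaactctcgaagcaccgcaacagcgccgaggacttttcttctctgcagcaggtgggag

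The TEAD motif occurred in 12 of the 22 windows found for the 30 tested YAP/TEAD members (54.5%), and in 12 of 21 windows of members called higher (57.1%), against 4817 of all 32851 windows of the table (14.7%). A CArG box occurred in 8 of the 34 windows of the 37 tested SRF and actin members (23.5%), in 7 of 28 windows of members called higher (25%), and in 535 of all 32851 windows (1.63%). These lists were compiled from known targets of the same factors, so that the shares describe the lists and not their response, and a match is not evidence of binding.

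Of 32 YAP/TEAD targets and pathway members, 30 were tested (1 only through its counts in Pph), 28 rose and 1 fell, the median log2 change being 0.88, and 12 rose by 2-fold or more. Ankrd1, an ankyrin repeat protein of the nucleus and sarcomere, was close to silent in WT and was at 0.0919, 0.0496 and 0.0471 CPM in the WT libraries and 2.23, 1.95 and 1.88 CPM in the Pph libraries. It was at 0.379 ± 0.0704 CPM in MP8 and 0.0811 ± 0.101 CPM in Tas, so that the Pph libraries were the highest of the 12 (log2 fold change 4.86 ± 0.50, adjusted p = 1.45e-09). Ankrd1 was the member tested only through its counts in Pph, so that this order was largely a condition of testing. Ccn1, a secreted matricellular protein, was at 24, 25.4 and 25.4 CPM in the WT libraries and 116, 114 and 108 CPM in the Pph libraries. Here too the groups were far apart, with a mean 4.51-fold higher in Pph (log2 fold change 2.17 ± 0.05, adjusted p = 6.12e-26). Ccn2, its close relative and the other textbook YAP target, was at 49.7, 46.4 and 50.1 CPM in the WT libraries and 53, 56.3 and 51 CPM in the Pph libraries and rose by little (log2 fold change 0.13 ± 0.05, adjusted p = 0.016), a call lost without Pph replicate 2 or WT replicate 2 (0.09 and 0.10). The call was also lost with DESeq2 (adjusted p = 0.0781), in the fit of the 6 Pph and WT libraries alone (0.114) and with upper quartile scaling (0.0695). Its level in MP8 was higher, 177 ± 3.22 CPM. Myof, a membrane repair protein, was at 9.33, 10.1 and 8.19 CPM in the WT libraries and 72.2, 74.9 and 71.4 CPM in the Pph libraries (log2 fold change 2.98 ± 0.07, adjusted p = 9.17e-25), the receptor tyrosine kinase gene Axl at 4.59, 4.91 and 4.56 CPM in the WT libraries and 26.2, 23.4 and 25.5 CPM in the Pph libraries (log2 fold change 2.42 ± 0.11, adjusted p = 5.45e-18), and Lats2, a kinase that inhibits YAP, at 3.31, 2.83 and 3.58 CPM in the WT libraries and 13.3, 15.6 and 16.1 CPM in the Pph libraries (log2 fold change 2.21 ± 0.12, adjusted p = 5.6e-16). In each of these genes the lowest Pph library was above the highest WT library. Of the coactivators and TEAD factors themselves, Tead1 rose, from 165 to 325 CPM (0.98 ± 0.04), Yap1 and its paralogue gene Wwtr1 changed by 0.11 ± 0.03 and 0.58 ± 0.06, and Tead2 fell (-0.34 ± 0.04). The call of Yap1 was lost with the length trend removed (0.02, adjusted p = 0.684), in the fit of 6 libraries, with upper quartile scaling and without Pph replicate 3, and that of Tead2 by limma on TPM (-0.04, adjusted p = 0.777).

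Of 38 SRF targets and actin cytoskeleton genes, 37 were tested, 30 rose and 1 fell, with a median of 0.59. Tagln, the smooth muscle actin-binding protein transgelin, was at 14.9, 14.6 and 14.7 CPM in the WT libraries and 115, 120.3 and 112 CPM in the Pph libraries. The Pph libraries were all above the WT libraries, 7.88-fold in the mean (log2 fold change 2.98 ± 0.05, adjusted p = 1.39e-28). The muscle actin gene Acta1 was at 1.52, 1.69 and 1.36 CPM in the WT libraries and 12, 12.2 and 8.98 CPM in the Pph libraries (log2 fold change 2.86 ± 0.18, adjusted p = 1.56e-14), and Flnc, a filamin that crosslinks actin, at 32.4, 36.8 and 32.3 CPM in the WT libraries and 167, 176 and 167 CPM in the Pph libraries (log2 fold change 2.33 ± 0.05, adjusted p = 3.57e-23). Fhl2 and Myl9 changed by 1.75 ± 0.16 and 1.09 ± 0.09. The cytoplasmic actin gene Actb and the factor gene Srf were not called (-0.02 ± 0.03 and 0.01 ± 0.07), and Myl12b fell (-0.24 ± 0.05).

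Adhesion and matrix genes followed the same direction. Of 29 integrin and focal adhesion genes, 27 were tested, 20 rose and 4 fell, with a median of 0.63. Itga3, the laminin-binding integrin chain α3, was at 87, 93.4 and 86.3 CPM in the WT libraries and 416, 448 and 424 CPM in the Pph libraries. It was 4.83-fold higher in Pph without overlap (log2 fold change 2.27 ± 0.04, adjusted p = 1.38e-28). The common β chain gene Itgb1 was at 187, 199 and 198 CPM in the WT libraries and 358, 346 and 349 CPM in the Pph libraries (log2 fold change 0.85 ± 0.03, adjusted p = 2.07e-19), while Itgb7 and the tensin gene Tns3 fell (-1.18 ± 0.07 and -0.82 ± 0.04). Of 39 genes of collagens, laminins and other matrix proteins and their enzymes, all tested (1 only through Pph), 35 rose, 17 of them by 2-fold or more, and 1 fell, with a median of 0.89. Thbs1, which encodes thrombospondin 1, was at 10.1, 9.27 and 10.9 CPM in the WT libraries and 70.4, 73 and 67 CPM in the Pph libraries (log2 fold change 2.80 ± 0.07, adjusted p = 6.48e-24). Col4a2, a chain of basement membrane collagen, was at 14.1, 12.5 and 12.6 CPM in the WT libraries and 89, 90.4 and 82.2 CPM in the Pph libraries (log2 fold change 2.74 ± 0.06, adjusted p = 1.95e-25). Sparc, Hspg2 and Lamb1, which were already high in WT, went from 389.8 to 639 CPM, 374 to 737 CPM and 174 to 303 CPM in the mean. The exception Thbs2 went from 2.68 to 1.68 CPM (-0.68 ± 0.22), and Nid2 and Col5a2 were not called (-0.07 ± 0.04 and 0.25 ± 0.14). Matrix genes are long, and with the length trend removed 33 rose, 2 fell and the median was 0.80.

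**Figure D2:**
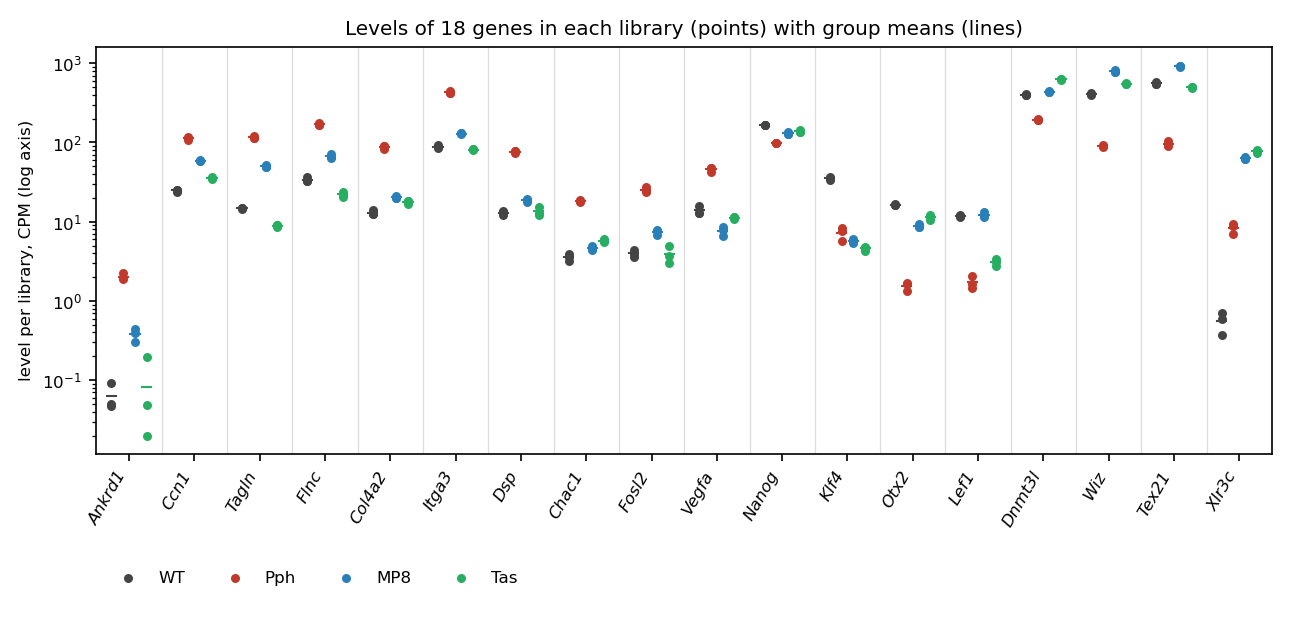
Levels of 18 genes in CPM on a log axis in every library of the 4 groups, with each point a library, each short line the group mean, and values under 0.02 CPM drawn at 0.02. Klf4, Otx2 and Lef1 lie lower in the 3 Pph libraries than in the 3 WT libraries, and Tagln, Itga3 and Ccn1 lie higher.

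Epithelial and trophectoderm genes rose in Pph. These lists are not separate, as Krt7, Krt8, Krt18 and Krt19 belong to both and to the keratins described below. Of 29 genes of simple epithelia, all tested, 24 rose and 1 fell, with a median of 0.67. Dsp, the desmosomal plaque protein desmoplakin, was at 12.2, 13.2 and 13.6 CPM in the WT libraries and 78.3, 77.7 and 73.8 CPM in the Pph libraries (log2 fold change 2.56 ± 0.07, adjusted p = 1.56e-23). The tight junction genes Cldn4, Cldn6 and Cgn rose by 1.09 ± 0.05, 1.17 ± 0.05 and 1.28 ± 0.04, and the E-cadherin gene Cdh1 by 0.23 ± 0.03. Esrp1, a splicing factor of epithelia, fell (-0.20 ± 0.04). Of 26 trophectoderm genes, 22 were tested (2 only through Pph), 19 rose and 1 fell, with a median of 1.62. Among the factors of this lineage, Cdx2 was at 0.276, 0.297 and 0.188 CPM in the WT libraries and 2.61, 2.7 and 1.62 CPM in the Pph libraries (log2 fold change 3.16 ± 0.38, adjusted p = 2.83e-08) and Gata3 at 0.459, 0.942 and 0.941 CPM in the WT libraries and 3.81, 3.6 and 2.89 CPM in the Pph libraries (log2 fold change 2.13 ± 0.27, adjusted p = 5.84e-08), both at low levels. Eomes, a factor of trophoblast stem cells, was not called (-0.13 ± 0.14), and Tfap2c fell from 37.9 to 20.1 CPM (-0.91 ± 0.06). The trophoblast markers Tpbpa, Prl3d1 and Prl2c2 had 0 counts in every Pph library, which allows up to 3 counts per library, and Elf5 was at 0.551, 0.297 and 0.235 CPM in the WT libraries and 0.163, 0.35 and 0.203 CPM in the Pph libraries. The summed level of the trophectoderm list was 2100 to 2130 CPM in Pph and 751 to 794 CPM in WT. Most of the WT sum was Peg10, which is also in the imprinted list and was among the genes that rose.

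Marker sums of other cell types were compared as well. The summed level of 27 primitive endoderm markers was 2040 to 2100 CPM in Pph and 1320 to 1380 CPM in WT. Of these, 19 were tested, 13 rose and 1 fell. Its matrix and uptake genes Col4a1 and Lrp2 rose (2.04 ± 0.05 and 1.54 ± 0.04), while the lineage factors Gata4 and Gata6 were low and not called (0.69 ± 0.34 and 0.18 ± 0.47). The summed level of 27 fibroblast markers was 1440 to 1500 CPM in Pph and overlapped the 1280 to 1480 CPM of WT, most of it Fn1. Of these, 23 were tested (1 only through Pph), 18 rose and 1 fell, with a median of 0.97, and Lum and Postn were at 3 counts or fewer in every Pph library. The medians of the fibroblast list against WT were 1.24 in MP8 and -0.02 in Tas. The part of any admixed cells in these changes was not tested. Of 21 mesendoderm markers, 14 were tested, 3 rose and 1 fell, and their summed level was 62.7 to 68.2 CPM in Pph and 45.7 to 47.0 CPM in WT. Of 21 neuroectoderm markers, 17 were tested, 6 rose and 5 fell (7 and 1 by limma on TPM), with sums of 573 to 596 CPM in Pph and 551 to 562 CPM in WT. The sums of the endothelial and blood list overlapped, at 178 to 187 CPM in Pph and 182 to 189 CPM in WT. Of its 21 genes, 11 were tested, 6 rose and 3 fell, among them the transcription factor gene Runx1, from 1.02 to 3.99 CPM (1.95 ± 0.27), and the VEGF receptor genes Flt1 and Kdr (1.40 ± 0.15 and -1.17 ± 0.08). Of 39 Hox genes only 4 were tested and those 4 were not called, and 1 of 21 markers of the two-cell-like state was tested, Zfp750, which was not called (-0.19 ± 0.12).

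Within the keratin family the changes were uneven. Of 51 keratin genes, 16 were tested (1 only through Pph), 5 rose and 2 fell. Krt19 and Krt20, keratins of simple epithelia, went from 18.5 to 66.3 CPM and 3.02 to 10.4 CPM (1.84 ± 0.08 and 1.78 ± 0.14). Krt42 fell from 37.1 to 14.5 CPM (-1.36 ± 0.07), and Krt17 was not called (-0.11 ± 0.06). Of 65 serpins, a family of protease inhibitors, 17 were tested (1 only through Pph), 8 rose and 5 fell (8 and 1 by limma on TPM), with Serpinb6c (-1.94 ± 0.18) among those that fell. The collagen chaperone gene Serpinh1 went from 89 to 129.9 CPM (0.55 ± 0.04).

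Calcium-binding annexins and S100 proteins and related surface genes rose. Of 22 members, 21 were tested, 16 rose and 2 fell, with a median of 0.63. Anxa1 and Anxa3, which bind membranes, went from 8.79 to 56.9 CPM and 8.73 to 62.7 CPM (2.69 ± 0.08 and 2.84 ± 0.08), and the hyaluronan receptor gene Cd44 from 0.796 to 4.15 CPM (2.38 ± 0.24). Anxa8 and Anxa11 fell (-0.83 ± 0.09 and -0.32 ± 0.04).

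Secreted signals and their receptors moved unevenly. Of 45 genes of the TGFβ, activin and BMP pathways, 42 were tested (1 only through Pph), 24 rose and 4 fell, with a median of 0.36. Among the ligands, Tgfb3 and Bmp8b went from 0.256 to 1.67 CPM and 6.02 to 29.8 CPM (2.69 ± 0.40 and 2.30 ± 0.09). Nodal and Lefty1, the activin-type ligand and its inhibitor in ES cells, were not called (-0.00 ± 0.04 and 0.05 ± 0.04), and Bmp4 fell (-1.27 ± 0.13). The call of Bmp4 was lost by limma on TPM (-0.86, adjusted p = 0.0863). The receptor gene Tgfbr2 rose (1.83 ± 0.20).

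The FGF and ERK list, with all 29 members tested, had 10 members higher and 8 lower, with a median of 0.06 (9 and 9 with the length trend removed). Phlda1 and the ERK phosphatase gene Dusp6 rose (2.23 ± 0.08 and 1.09 ± 0.04), whereas the ligand gene Fgf4 and the target Etv5 fell (-0.43 ± 0.04 and -0.60 ± 0.03). Of 35 Wnt pathway genes, 32 were tested (1 only through Pph), with 11 higher and 11 lower (11 and 7 by limma on TPM). The feedback inhibitor genes Axin2 and Notum, both known Wnt targets, fell (-1.20 ± 0.17 and -1.92 ± 0.09), as did the ligand genes Wnt8a and Wnt5a (-2.17 ± 0.32 and -1.01 ± 0.11). Wnt4, Wnt3 and Wnt7b rose from low levels (1.95 ± 0.45, 1.39 ± 0.27 and 1.11 ± 0.15), and the gene of β-catenin, Ctnnb1, was not called (-0.05 ± 0.03). Reads of Notum and of its antisense gene Notumos cannot be told apart here, since the strand setting is not given in the sources used here.

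Of 20 genes of insulin-like growth factor signalling, 19 were tested (1 only through Pph), 13 rose and 1 fell, with a median of 0.54. The adaptor gene Irs2 and the receptor gene Igf1r rose (1.70 ± 0.07 and 0.67 ± 0.04). The binding protein gene Igfbp6 rose from 0.889 to 8.01 CPM (3.17 ± 0.18), and Igfbp2 fell from 222 to 89.7 CPM (-1.31 ± 0.12). Of 32 cytokine and NF-κB genes, 18 were tested, 9 rose and 2 fell, with a median of 0.78. Lif, the cytokine that sustains mouse ES cells, was at 5.19, 5.45 and 6.96 CPM in the WT libraries and 19.4, 21.4 and 20.3 CPM in the Pph libraries. It was higher in every Pph library than in any WT library (log2 fold change 1.79 ± 0.10, adjusted p = 1.19e-15). The chemokine gene Cxcl16 went from 4.75 to 16.5 CPM (1.79 ± 0.12), and the NF-κB subunit gene Rela and its inhibitor gene Nfkbia were not called (0.06 ± 0.07 and 0.03 ± 0.10).

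Immediate early and AP-1 genes rose with exceptions. Of 24 members, 23 were tested, 18 rose and 3 fell, with a median of 0.91. Fosl2, a FOS-family subunit of AP-1, was at 4.41, 3.92 and 3.62 CPM in the WT libraries and 23.4, 27.1 and 24.4 CPM in the Pph libraries (log2 fold change 2.65 ± 0.12, adjusted p = 3.6e-18). Jun, its usual partner, went from 8.99 to 21.9 CPM (1.28 ± 0.09), and the protease gene Plau, an AP-1 target, from 0.574 to 3.63 CPM (2.66 ± 0.26). Fos itself was not called (-0.29 ± 0.22), and the early genes Egr1 and Ier2 fell (-0.73 ± 0.06 and -0.37 ± 0.05).

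Genes of the integrated stress response, in which ATF4 drives amino acid supply, rose by mostly small steps. Of 35 members, 33 were tested, 27 rose and 2 fell, with a median of 0.45. Chac1, which degrades glutathione, was at 3.95, 3.17 and 3.58 CPM in the WT libraries and 17.6, 18.8 and 18.3 CPM in the Pph libraries (log2 fold change 2.35 ± 0.11, adjusted p = 1.01e-17). Atf4 and the asparagine synthetase gene Asns rose less (0.32 ± 0.03 and 0.45 ± 0.03), and the cystine transporter gene Slc7a11 went from 4.17 to 10.5 CPM (1.33 ± 0.14). Amino acid carriers moved in the same direction. Of 54 amino acid transporter genes, 34 were tested, 19 rose and 2 fell, with a median of 0.33. The glutamate carrier gene Slc1a6 went from 1.42 to 9.09 CPM (2.67 ± 0.14), the glycine carrier gene Slc6a9 from 5.25 to 12.8 CPM (1.28 ± 0.12) and the cationic amino acid carrier gene Slc7a1 from 75 to 133 CPM (0.82 ± 0.05). For the integrated stress list in MP8 and Tas, the medians against WT were -0.37 and -0.07. The endoplasmic reticulum stress list, with all 21 members tested, had 5 higher and 5 lower (5 and 9 with the length trend removed, 10 and 1 by limma on TPM). Its chaperone gene Hspa5 was not called (-0.06 ± 0.03), and Xbp1, a transcription factor of this response, fell (-0.86 ± 0.05). Of 30 p53 targets, 29 were tested, 20 rose and 5 fell, with a median of 0.46. The medians of this list against WT were 0.62 in MP8 and 0.31 in Tas, so that the rise was not particular to Pph. Mdm2 and Ccng1 rose (0.68 ± 0.04 and 0.67 ± 0.03), while the Trp53 gene itself fell slightly (-0.28 ± 0.03).

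**Figure D3:**
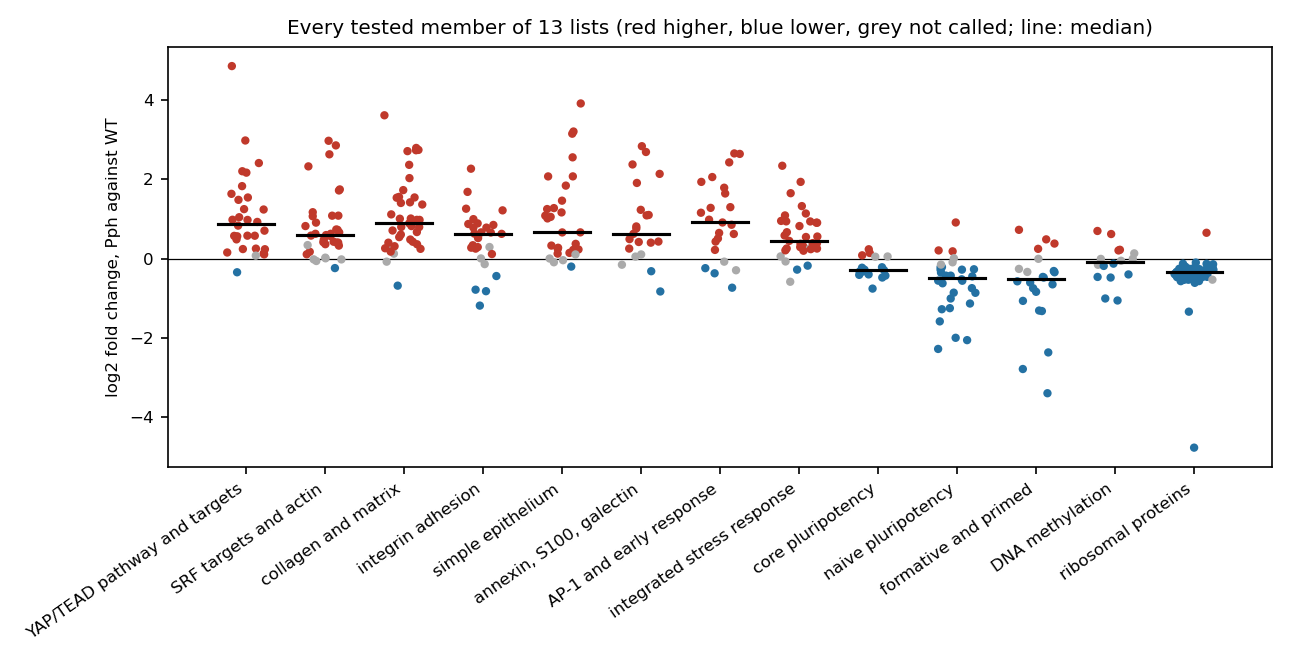
Log2 fold change of Pph against WT for every tested member of 13 gene lists, with each point a gene (red called higher, blue called lower, grey not called) and a black bar at each list's median. The naive and core pluripotency lists lie mostly below 0 with medians of -0.48 and -0.28, and the YAP/TEAD and matrix lists above 0 with medians of 0.88 and 0.89.

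Metabolic lists shifted little in their medians. Of 33 glycolysis and hypoxia genes, all tested, 16 fell and 7 rose (6 and 9 by limma on TPM), with a median of -0.09. Ldha and Pgk1 fell (-0.31 ± 0.03 and -0.27 ± 0.03), while the angiogenic factor gene Vegfa was at 15.8, 12.8 and 12.9 CPM in the WT libraries and 47.5, 47.6 and 42.1 CPM in the Pph libraries and rose (log2 fold change 1.72 ± 0.08, adjusted p = 2.28e-17). Of 30 genes of cholesterol and fatty acid synthesis, all tested, 14 fell and 5 rose (19 and 2 with the length trend removed, 4 and 5 by limma on TPM), with a median of -0.07. Insig1, which restrains sterol synthesis, and the synthase gene Fdps fell (-0.69 ± 0.04 and -0.50 ± 0.04). Of 35 antioxidant and glutathione genes, 34 were tested, 15 fell and 7 rose (8 and 10 by limma on TPM), with a median of -0.12. Gpx4, which reduces lipid peroxides, was at 291, 278 and 295 CPM in the WT libraries and 179, 199.5 and 180.4 CPM in the Pph libraries (log2 fold change -0.63 ± 0.04, adjusted p = 2.32e-13), and Gsto1 rose (0.85 ± 0.04). Limma on TPM gave medians of 0.01, 0.08 and 0.08 for these lists, above 0 where the counts put them below. On both scales these medians were below that of all genes, which was 0.17 by limma on TPM and 0.04 by counts. Of 34 lysosome and autophagy genes, 33 were tested, 11 fell and 9 rose (2 and 16 by limma on TPM), with a median of -0.03 (0.14 by limma on TPM). Again both medians were below those of all genes. The cathepsin gene Ctsl rose from 161 to 235 CPM (0.54 ± 0.04), and Mitf and Tfeb, factors of lysosome formation, fell (-0.81 ± 0.16 and -0.32 ± 0.11). Mitf was not called by limma on TPM (adjusted p = 0.0629).

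Of 37 interferon and antigen presentation genes, 30 were tested, 13 fell and 8 rose, with a median of -0.13 (0.06 by limma on TPM). Oas1a, Psmb10 and Ifitm2 fell (-2.14 ± 0.23, -1.06 ± 0.08 and -0.57 ± 0.06), while B2m, the common chain of class I histocompatibility molecules, rose from 17.5 to 35.7 CPM (1.03 ± 0.07). Of 41 cell cycle genes, all tested, 21 fell and 10 rose (11 and 15 by limma on TPM), with a median of -0.09 (0.07 by limma on TPM). With the length trend removed, 22 fell and 9 rose, with a median of -0.21. The interferon and cell cycle medians were below those of all genes on both scales, 0.04 by counts and 0.17 by limma on TPM. The replication genes Pcna and Mcm5 fell (-0.49 ± 0.04 and -0.47 ± 0.04), and the inhibitor genes Cdkn2b and Cdkn2a rose (0.93 ± 0.14 and 0.78 ± 0.12).

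Of 17 genes of DNA methylation and its removal, 16 were tested, 7 fell and 4 rose, with a median of -0.09. With the length trend removed, 10 fell and 3 rose, with a median of -0.17, and limma on TPM called 5 lower and 6 higher. Dnmt3l, the cofactor of the de novo methyltransferases, was at 399, 405 and 400.3 CPM in the WT libraries and 192, 197 and 191 CPM in the Pph libraries. It was lower in Pph by 2.08-fold without overlap (log2 fold change -1.05 ± 0.03, adjusted p = 5.49e-23), whereas its level was 438 ± 3.66 CPM in MP8 and 627 ± 10.7 CPM in Tas. The methyltransferase genes Dnmt3a and Dnmt3b fell by less (-0.46 ± 0.03 and -0.47 ± 0.03). Of 30 Polycomb genes, all tested, 9 rose and 9 fell (4 and 12 with the length trend removed, 13 and 3 by limma on TPM). Pcgf5, a subunit of a variant Polycomb repressive complex 1, went from 12.9 to 27.4 CPM (1.09 ± 0.08), and the core genes Ezh2 and Suz12 fell slightly (-0.14 ± 0.04 and -0.18 ± 0.04). Neither core gene was called by limma on TPM (adjusted p = 0.133 and 0.568).

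Wiz, a zinc finger partner of the H3K9 methyltransferases G9a and GLP, was at 404, 425 and 393 CPM in the WT libraries and 88.2, 89.4 and 92.2 CPM in the Pph libraries, a 4.54-fold lower mean in Pph (log2 fold change -2.18 ± 0.04, adjusted p = 4.24e-29). The other null groups were above WT, with 793 ± 21.1 CPM in MP8 and 549 ± 7.08 CPM in Tas. By TPM, Wiz was at 42.7, 44.4 and 40 TPM in WT and 20.4, 22.2 and 21.7 TPM in Pph, a smaller difference than by counts. Tex21, a gene of testis expression, was at 553, 580.1 and 542 CPM in the WT libraries and 103, 90.8 and 94 CPM in the Pph libraries (log2 fold change -2.54 ± 0.04, adjusted p = 1.39e-28), with 912 ± 24.8 CPM in MP8 and 499 ± 8.5 CPM in Tas.

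Gene families known for silencing by H3K9 methylation were examined next. Of 27 Mage and Xlr genes, 19 were tested, 9 rose and 2 fell. Xlr3c, one of a cluster of X-linked lymphocyte-regulated genes, was at 0.368, 0.595 and 0.706 CPM in the WT libraries and 8.91, 6.9 and 9.49 CPM in the Pph libraries. It rose in all 3 Pph libraries (log2 fold change 3.91 ± 0.19, adjusted p = 1.66e-16) but was below the 62.8 ± 2.02 CPM of MP8 and the 77.2 ± 4.06 CPM of Tas. Xlr5a and Xlr3b went from 2.45 to 16.3 CPM and 2.2 to 12.4 CPM (2.74 ± 0.12 and 2.49 ± 0.11). The Xlr genes are near-identical copies, so that the division of reads among them is uncertain. Of 58 clustered protocadherins, 31 were tested (2 only through Pph), 19 rose and 2 fell, with a median of 0.89. Their members share exons, so that single values are uncertain too. Of 1394 olfactory and trace amine receptor genes, 40 were tested (1 only through Pph), of which 16 rose by edgeR's quasi-likelihood test and 24 were not called.

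Of 421 zinc finger genes named Zfp, 398 were tested, 119 rose and 57 fell, with a median of 0.08. With the length trend removed, 100 rose and 87 fell, and limma on TPM called 136 higher and 11 lower. Of 41 germline and meiosis genes, 35 were tested (1 only through Pph), 12 rose and 11 fell. D1Pas1, a testis helicase, went from 12.8 to 43.8 CPM (1.78 ± 0.05), and Hormad1, a protein of the meiotic chromosome axis, from 6.85 to 2.73 CPM (-1.32 ± 0.14). All 4 tested Rhox homeobox genes, of 32 listed, fell, among them Rhox5 (-1.75 ± 0.06). Of 37 imprinted genes, all tested (1 only through Pph), 20 rose and 7 fell, with a median of 0.28, and limma on TPM called 21 higher and lost the 7 lower calls. Peg10, a domesticated retrotransposon needed for placenta formation, went from 449.5 to 921 CPM (1.03 ± 0.03), and the growth adaptor gene Grb10 from 267 to 529 CPM (0.99 ± 0.03).

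Genes were also grouped by annotated class. Among all tested genes, 38.4% of 497 lincRNA genes, 21.4% of 350 antisense genes and 30.6% of 14366 coding genes were called higher, so that the order of the classes against coding genes was mixed. Among genes with at least 5 CPM over the Pph and WT libraries, 82 of 142 lincRNA genes rose and 22 fell, with a median of 0.33, and 24 of 40 antisense genes rose and 7 fell, with a median of 0.44. Coding genes were split, with 3294 of 10702 higher and 3652 lower and a median of -0.02. Processed pseudogenes, the retrocopies of spliced messages, had a median of 0.01, with 54 of 126 higher and 40 lower, and a median of 0.20 with the length trend removed. Over all 453 tested processed pseudogenes, 150 rose and 64 fell, with a median of 0.23. As copies, they share sequence with their parent genes, so that the division of reads between copy and parent is uncertain. Among all tested coding genes, those with a single exon had 95 of 360 higher and 82 lower, against 4308 of 14006 higher and 3950 lower for those with several exons. For lincRNA genes the medians against WT were 0.50 in MP8 and 0.47 in Tas. These classes were counted without a test.

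Gene length moved with the comparison. Among genes with at least 5 CPM, the shortest eighth, of up to 1262 bases, had a median of -0.24, and the longest eighth, of 5861 bases or more, a median of 0.16. The same medians were -0.24 and 0.09 in MP8 and -0.12 and 0.10 in Tas, each against the WT libraries that all 3 comparisons share. Lists of short genes have to be read beside this trend, and the part of length in their changes was not tested beyond a fit with the trend removed. Of 89 cytosolic ribosomal protein genes, 85 were tested, 83 fell and 1 rose, with a median of -0.35 and a median length of 820 bases. With the length trend removed, 70 fell, 3 rose and the median was -0.19. Rplp1, a protein of the ribosomal stalk, went from 6290 ± 172 TPM to 5233 ± 357 TPM (SD, n = 3), and Npm1, which shuttles in ribosome assembly, from 6636 ± 203 TPM to 6002 ± 162 TPM.

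Mitochondrially encoded genes and replication-dependent histones are short as well. Of 15 mitochondrially encoded genes, all tested, 10 fell and 5 were not called by edgeR, with a median of -0.26 (8 lower and a median of -0.11 with the length trend removed). Limma on TPM called 5 lower and 1 higher, with a median of -0.07. The large ribosomal RNA gene mt-Rnr2 was at 326, 347 and 362 CPM in the WT libraries and 132, 115 and 126 CPM in the Pph libraries (log2 fold change -1.47 ± 0.05, adjusted p = 3.29e-18), and its levels in MP8 and Tas were 149.7 ± 4.36 CPM and 158 ± 4.61 CPM. Of 68 histone genes, 34 were tested (2 only through Pph), 15 fell and 1 rose, with a median of -0.77 (12 lower and -0.63 with the trend removed). These messages are known to lack a poly(A) tail for the most part, and their levels were low: H2ac11 had a mean of 3.09 ± 0.605 CPM in WT and 0.789 ± 0.16 CPM in Pph.

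Chromosome 16 stood apart from the other chromosomes in Pph. Of its 352 genes with at least 5 CPM, 60.5% were called higher and 9.94% lower, 77.3% had a log2 fold change above 0, and the median was 0.20. The medians of the other chromosomes ranged from -0.08 to 0.03. Divided into 12 stretches in order along the chromosome, all had positive medians, from 0.11 to 0.35. In MP8 the chromosome 16 median was 0.24 and in Tas 0.10, while Tas had medians of 0.34 on chromosome 8 and 0.25 on chromosome 19. Without chromosome 16, 4951 genes were called higher and 4196 lower of 16348 tested. Chromosome copy number was not measured.

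**Figure D4:**
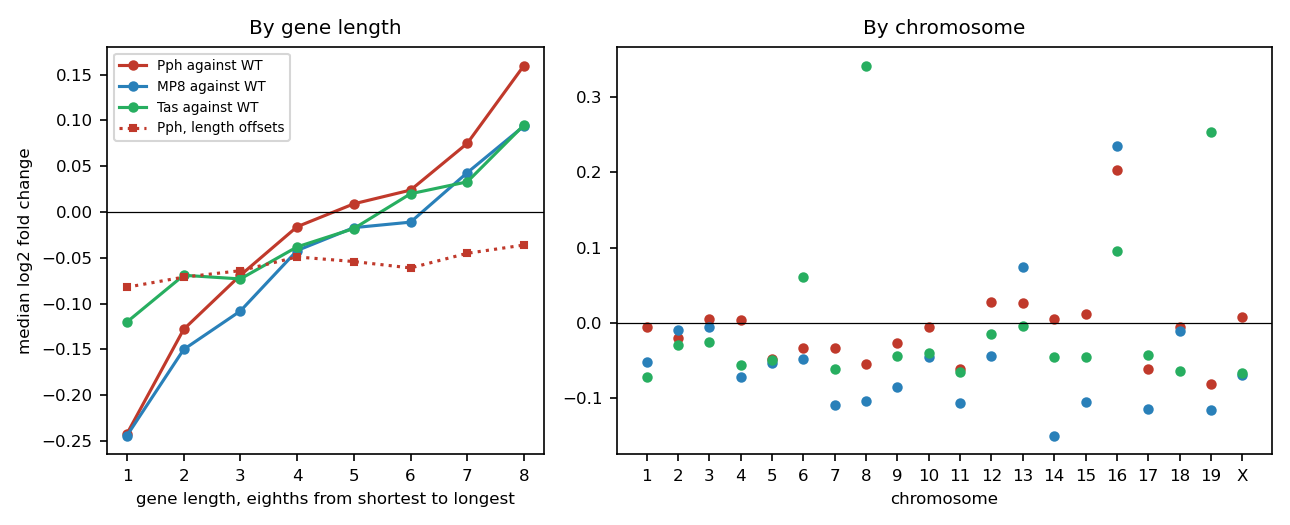
Median log2 fold change against WT by eighth of gene length, from shortest to longest (left), and by chromosome (right), for each of the 3 null groups and genes with at least 5 CPM over the Pph and WT libraries, with a dotted line for Pph after the length trend was removed. Medians rise with length in every group, from -0.24 to 0.16 in Pph, and chromosome 16 lies at 0.20 in Pph.

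For a few genes the counts and the TPM moved apart. The ratio of CPM to TPM follows the length of the transcripts assigned to a gene. This ratio was compared for 10705 genes with at least 5 CPM in both groups, a check chosen after the values were seen. Its median absolute log2 change was 0.03 and its 99th percentile 0.48, and 15 genes passed a change of 1 with no overlap between libraries. Of these, 9 had fewer reads per TPM in Pph and 6 more. Tbc1d5, a regulator of endosomal sorting, was at 5.61, 5.09 and 7.79 TPM in WT and 25.2, 26.5 and 26.7 TPM in Pph, higher in every Pph library, whereas its log2 fold change by counts was 0.39 ± 0.08. Tenm4, a teneurin of cell adhesion, was at 6.4, 6.44 and 4.65 TPM in WT and 28.9, 23 and 32.6 TPM in Pph, with a log2 fold change by counts of 0.86 ± 0.05. Both had higher TPM in the Pph libraries than in any WT library and higher still in MP8, at 60.2 ± 4.84 TPM for Tbc1d5 and 54.2 ± 3.8 TPM for Tenm4. Atf7ip, the partner of SETDB1, was at 23.9, 26.1 and 21.5 TPM in WT and 26.7, 72.5 and 55.3 TPM in Pph, with a spread in Pph that the counts did not show (-0.17 ± 0.04).

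The 10 largest gains and the 10 largest losses in TPM were also listed. Hsp90aa1, a cytosolic chaperone, went from 2353 ± 69.1 TPM to 2952 ± 124 TPM (SD, n = 3; log2 fold change by counts 0.22 ± 0.03). Tmsb4x, which sequesters actin monomers, was at 672, 653 and 687 TPM in WT and 1273, 1199 and 1260 TPM in Pph, and S100a11, a calcium-binding protein, at 368, 363 and 374 TPM in WT and 726, 731 and 699.9 TPM in Pph. Both were higher in every Pph library, and their counts rose as well (0.75 ± 0.03 and 0.76 ± 0.04). Lgals1, the galactoside-binding protein galectin-1, was at 191, 188 and 191 TPM in WT and 494, 501 and 515 TPM in Pph (1.23 ± 0.04). The X-linked genes Bex1 and Bex3 went from 771 ± 15.4 TPM to 1252 ± 27.9 TPM and from 344 ± 12.4 TPM to 562 ± 32 TPM. Krt8 and Krt18, which encode paired keratins, were also among the largest gains, from 36.9 ± 1.87 TPM to 379.9 ± 10.9 TPM and from 36.9 ± 0.812 TPM to 367 ± 9.89 TPM. The list was completed by Klhl13, which encodes a ubiquitin ligase adaptor, and the actin gene Actg1 (0.47 ± 0.03 and 0.11 ± 0.03), the latter not called without Pph replicate 2 (0.07, adjusted p = 0.0592). Among the losses were ribosomal protein genes, mt-Atp8 and mt-Cytb, and Ptma, which encodes prothymosin α and went from 5303 ± 117 TPM to 4748 ± 97.3 TPM. The loss of mt-Atp8 was not called by limma on TPM (-0.07, adjusted p = 0.122).

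Other large single changes fell outside the lists. Ccdc80, a secreted matrix-associated protein, was at 0.0459, 0.0496 and 0.188 CPM in the WT libraries and 2.12, 2 and 1.98 CPM in the Pph libraries. MP8 and Tas were at 0.411 ± 0.148 CPM and 0.0361 ± 0.0625 CPM, so that the Pph libraries stood above all others (log2 fold change 4.33 ± 0.49, adjusted p = 7.83e-09). Ccdc80 too was tested only through its counts in Pph, which largely set this order. Plcl1, a protein related to phospholipase C, was at 0.322, 0.397 and 0.188 CPM in the WT libraries and 3.59, 4.35 and 2.74 CPM in the Pph libraries (log2 fold change 3.54 ± 0.30, adjusted p = 2.82e-11), and the ephrin receptor gene Epha6 at 0, 0.297 and 0.517 CPM in the WT libraries and 2.88, 2.8 and 2.99 CPM in the Pph libraries (log2 fold change 3.40 ± 0.54, adjusted p = 0.000195). Both were also high in the other null groups, at 5.26 ± 0.452 CPM and 4.03 ± 1.05 CPM for Plcl1 and 6.06 ± 1.08 CPM and 3.46 ± 1.35 CPM for Epha6. Eef1ece2, a readthrough gene, had the largest fitted change, with 0, 0.149 and 0 CPM in the WT libraries and 4.02, 1.55 and 2.44 CPM in the Pph libraries (log2 fold change 5.63 ± 1.60, adjusted p = 0.0154), and its reads cannot be told apart from those of the genes it spans. Without WT replicate 1 or 3 its adjusted p was 0.0528 or 0.0522. Ccdc80, Epha6 and Eef1ece2 lie on chromosome 16, where Pph values were shifted upward as a whole. Among the losses, Slc4a5, a sodium bicarbonate carrier, was at 10.6, 11.2 and 12.8 CPM in the WT libraries and 0.979, 1.35 and 1.37 CPM in the Pph libraries (log2 fold change -3.21 ± 0.18, adjusted p = 8.17e-16). Slfn9, of the Schlafen family, was at 18.5, 20.6 and 18.3 CPM in the WT libraries and 2.23, 2.65 and 2.84 CPM in the Pph libraries (log2 fold change -2.89 ± 0.12, adjusted p = 2.05e-18) and at 5.74 ± 1.27 CPM in MP8 and 32.8 ± 0.887 CPM in Tas. Glrx, the glutaredoxin that reduces glutathionylated proteins, went from 1.85 to 0.191 CPM (-3.25 ± 0.42), and Esp4, an exocrine gland peptide gene, from 15.1 to 1.32 CPM (-3.50 ± 0.16).

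Some genes crossed the detection floor. With at most 3 counts in every WT library, 63 genes were called higher, 29 of them with a usable symbol. Besides Ankrd1, these included Foxl2, a transcription factor of ovary and eyelid, at 0.0459, 0.0991 and 0.0471 CPM in the WT libraries and 2.12, 1.55 and 1.47 CPM in the Pph libraries. Ptx3, a soluble pattern recognition protein, was at 0.0459, 0.0496 and 0.141 CPM in the WT libraries and 1.2, 2.1 and 1.62 CPM in the Pph libraries. Every Pph library was above every WT library for both, and the fitted log2 fold changes of 4.62 ± 0.48 and 4.27 ± 0.49 depend on the prior count. In the other direction, 19 genes had at most 3 counts in every Pph library and were called lower, 14 with a usable symbol. Genes at the floor in WT or in Pph could be tested only through libraries of other groups. Their directions were therefore partly a condition of testing. How many tested genes lay at the floor was not determined, so no share stands beside the 63 and the 19. The testis lactate dehydrogenase gene Ldhc was at 1.1, 1.09 and 1.22 CPM in the WT libraries and 0.0544, 0.05 and 0.102 CPM in the Pph libraries, and the cilium genes Dnajb13 and Rsph4a went from 1.23 to 0.0529 CPM and 1.02 to 0.138 CPM.

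The Pph libraries were also set against the mean of the MP8 and Tas groups, which does not use the WT libraries. Here 31.0% of the 16840 tested genes were called higher and 28.0% lower in Pph, and for 22.6% the 3 Pph libraries overlapped none of the other 9. Genes of several lists described above were higher in Pph in this contrast too. For simple epithelium 26 of 29 tested members were higher by edgeR, with a median of 1.15. Of the 33 tested integrated stress genes, 30 were higher, with a median of 0.70. For trophectoderm 19 were higher and 1 lower, for the matrix list 31 and 3, for YAP/TEAD targets 24 and 3, and for SRF and actin genes 31 and 1. Core pluripotency was lower, with 11 members lower and 1 higher, whereas the naive list was split, with 12 higher and 13 lower. Of the 33 glycolysis and hypoxia genes, 23 were higher and 1 lower in this contrast, although 16 had fallen and 7 risen against WT. Their medians against WT were -0.70 in MP8 and 0.03 in Tas.

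Genes were ranked by this difference among called genes with a usable symbol, a mean of at least 1 CPM and Pph libraries overlapping none of the other 9. In this ranking the largest difference above the other null groups was that of Csf1, the growth factor of macrophages. Csf1 was at 1.15, 0.644 and 1.41 CPM in the WT libraries and 22, 22 and 21.5 CPM in the Pph libraries, with means of 2.39 ± 0.196 CPM in MP8 and 0.653 ± 0.198 CPM in Tas (4.12 ± 0.12). Il3ra, a chain of the interleukin 3 receptor, was at 0.827, 0.942 and 1.32 CPM in the WT libraries and 4.19, 5.6 and 3.91 CPM in the Pph libraries, and its mean was 0.15 ± 0.169 CPM in MP8 and 0.453 ± 0.121 CPM in Tas (log2 difference 4.07 ± 0.27, adjusted p = 8.43e-14). Krt7, a keratin of simple epithelia, was at 15.7, 18.5 and 15.6 CPM in the Pph libraries, against 1.3 ± 0.138 CPM in MP8 and 0.998 ± 0.18 CPM in Tas (3.86 ± 0.12). Esx1, an X-linked homeobox gene of the placenta, went from 1.55 to 10.6 CPM between WT and Pph and was 3.57 ± 0.14 above the other null groups. The fibrillar collagen gene Col1a2 differed by 3.42 ± 0.17. For these genes every Pph library was above all other 9.

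Under the same conditions, the 10 genes farthest below the other null groups included some that fell against WT in Pph, among them Wiz and Tex21. Some were above WT in MP8 and Tas. Ndufb11b, a single-exon copy of a respiratory chain gene, was at 24.9 ± 0.807 CPM in MP8, 10.4 ± 0.206 CPM in Tas and 0.163, 0.15 and 0.355 CPM in the Pph libraries (-6.13 ± 0.20), the last from at most 7 counts per library. With so few counts in Pph, it was tested through libraries of other groups, so that its direction was partly a condition of testing. Hydin, a protein of motile cilia on chromosome 8, was at 9.27 ± 0.259 CPM in MP8, 30.3 ± 1.01 CPM in Tas and 1.2, 1.05 and 0.66 CPM in the Pph libraries (-4.11 ± 0.14), where the Tas value lies on a chromosome shifted upward in Tas. The Mage and Xlr list had 2 members higher and 12 lower than in the other null groups, with a median of -1.26, and the tested olfactory genes 2 higher and 20 lower, with a median of -0.55. Against WT, the olfactory medians were 1.44 in MP8 and 1.12 in Tas. The filter spanned all 4 groups, so genes of both lists that are low in WT and Pph could be tested through MP8 or Tas alone. Such genes are lower in Pph by selection. The counts and medians given for both lists include them, and their number was not determined. The lincRNA genes had a median of -0.26. Rhoj, a GTPase of endothelial cells, showed a rise in all null groups, smaller in Pph, with 8.37, 7 and 8.53 CPM in the Pph libraries against 0.757 ± 0.141 CPM in WT, 27, 26.1 and 29.8 CPM in the MP8 libraries and 20.4, 18 and 18.8 CPM in the Tas libraries (-1.53 ± 0.08). Nalf1, which encodes a subunit of a sodium leak channel, was at 23.1, 20.4 and 24.5 CPM in Pph, 2.21 ± 0.61 CPM in WT, 62.7 ± 2.85 CPM in MP8 and 37.2 ± 1.33 CPM in Tas (-1.09 ± 0.06).

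**Figure D5:**
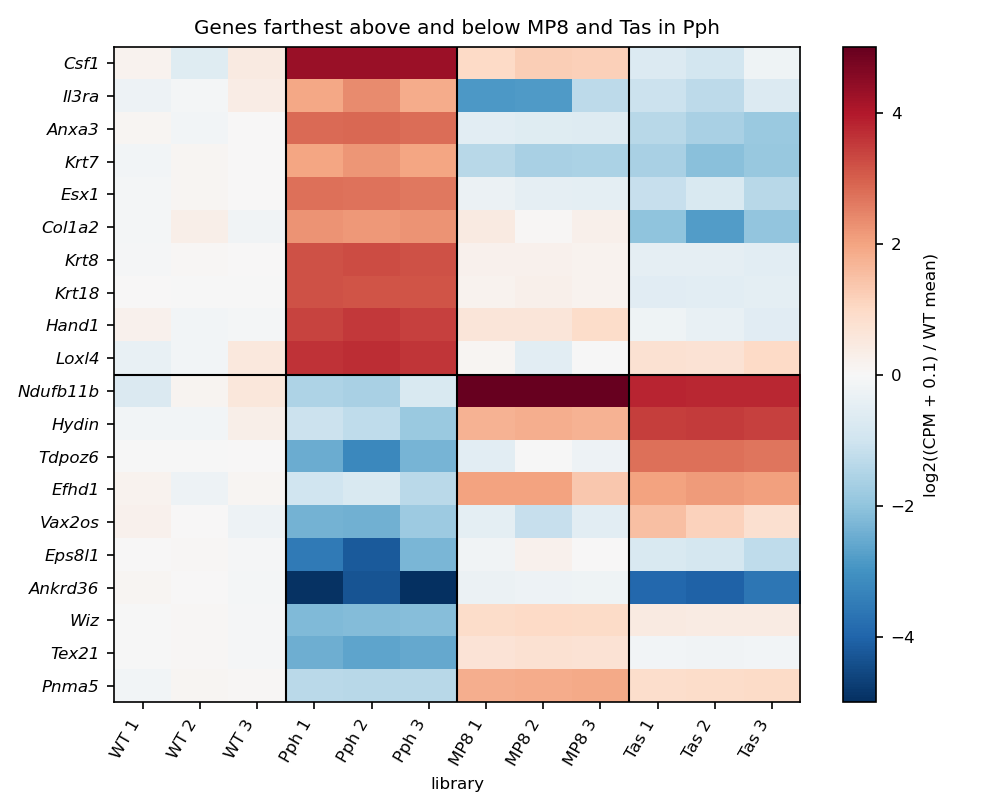
Heat map of 20 genes ranked by the difference between Pph and the mean of MP8 and Tas, as log2 of (CPM + 0.1) over the WT mean in each of the 12 libraries. The ranking took called genes with a usable symbol and a mean of at least 1 CPM. Their Pph libraries had to overlap none of the other 9, so that the separation of the Pph columns was a condition of the choice. The upper genes, such as Krt7 and Il3ra, are higher in the 3 Pph columns than in the other 9, and the lower genes are lower there, with Ndufb11b and Hydin high in the MP8 and Tas columns and Tex21 below WT in the Tas columns.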

How the data were processed

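Total RNA from 12 mouse ES cell libraries was sequenced after TruSeq library preparation, per the labels' protocols. The submitters' processing notes name the build GRCm39 and the tools HISAT2 2.1.0, FastQC, DESeq 1.26.0 and RSEM, and the counter's strand setting is not given in the sources used here. The authors deposited, per the file headers, estimated counts and TPM per gene in 3 tables that hold the same WT values. The tables' own columns of ratio, log2 fold change, p-value and adjusted p were not used. Of estimated counts above 0, 32.5% were not whole (tolerance 1e-09), so all were rounded.

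Counts were fitted with edgeR 4.0.16 in R 4.3.3 (filterByExpr by group, TMM scaling, robust quasi-likelihood fit of 4 group means over all 12 libraries, 8 residual degrees of freedom), with Benjamini-Hochberg adjustment over 16840 genes and a threshold of 0.05. Fold changes are Pph over WT, or Pph over the mean of MP8 and Tas, on the log2 scale. CPM used TMM-scaled totals. At these depths 3 counts, the floor, stand for 0.138 to 0.163 CPM in WT and Pph, which covers counting error only. Limma 3.58.1 on log2(TPM + 0.1) and DESeq2 1.42.0 were alternatives, as were other scalings and filters, the 6 libraries alone, a replicate block and each library left out. A fit with gene length as an offset (lowess of the CPM deviation on log2 length) and a fit without chromosome 16 were chosen after the data were seen. The fit was tested on simulated data.

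Chromosome, biotype and exon number came from GENCODE M21 by gene ID (90.8% of IDs matched), and promoters from RefSeq (GRCm38.p6). Symbols were missing for 525 genes, and 230 symbols were shared. The members and lists were chosen with earlier results of these data known. Lists can share members, so that a gene may count in several of them. For example, Col4a1, Col4a2 and Lamb1 are in the matrix and primitive endoderm lists, and Tagln and Acta2 in the SRF and fibroblast lists. Genes were named by fixed rules: the 15 largest called rises and falls without overlap, the 10 largest TPM changes per direction, the 10 highest genes silent in 1 group, the 10 largest differences from the other null groups per direction, and up to 6 called members per list and direction with uncalled members. A few genes that these rules name are not reported here. Other list members, family members and the genes of the read-per-TPM check were chosen after their values were seen. Same-numbered libraries did not deviate together (correlations of -0.053 to 0.026), so no pairing was used.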

Additional observations from a re-analysis of the deposited data

How the results depend on the processing

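Against WT, 5151 genes were higher and 4331 lower. The other settings gave 4342 to 5864 higher and 1875 to 4891 lower, the 1875 from limma on TPM, and leaving out 1 library gave 4762 to 5018 higher and 3980 to 4238 lower. Genes higher by 2-fold or more numbered 1500 (1124 to 1675 over settings, 1475 to 1564 with 1 library left out). Genes lower by 2-fold or more numbered 377 (226 to 485, and 375 to 421), the 226 from a filter at a mean of 1 CPM. Against the mean of MP8 and Tas, 5224 genes were higher (4348 to 5776, and 4804 to 5140) and 4709 lower (4140 to 5511, and 4282 to 4610). With the replicate number as a block, 5068 genes were higher and 4259 lower than in WT, although the numbers do not pair the libraries. The median of all genes was 0.04 by TMM, 0.09 by library totals, where 61.0% of calls were higher, and -0.00 with length offsets.
Of 193 named genes called against WT, 171 kept direction and call under every alternative run. Under at least 1 alternative, 19 lost the call with the direction kept. Leaving out 1 library ended the calls of Actg1 (to 0.07), Ccn2 (0.09 and 0.10), Dppa2 (0.06 to 0.08), Eef1ece2 (5.08 and 5.09), Fn1 (-0.16), Tfeb (-0.27 and -0.25), Thbs2 (-0.49) and Yap1 (0.08). Calls ended by limma on TPM included those of Bmp4, Ezh2, Fn1, Il6st, Lifr, Mitf, mt-Atp8, Stat3, Suz12, Tead2 and Thbs2. Limma on TPM turned the sign of 6 genes, to 0.15 for Actb, 1.00 for Atf7ip, 0.01 for Esrp1, 0.01 for Mtrex, 0.16 for Nodal and 0.15 for Rbm7. Of these, Esrp1 and Mtrex were not called there and so also lost their calls (adjusted p = 0.889 and 0.838).
Small changes of short or long genes and calls near the threshold are limited by the scale, and genes under 1 CPM by depth. The cause of these differences was not tested.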
